A study of Mus musculus with 9 samples.

Results

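The genes described here encode the proteasome, the protease complex that degrades ubiquitin-tagged proteins, and they were taken as all probes whose gene symbol, as annotated or after updating, began with Psma, Psmb, Psmc, Psmd, Psme, Psmf or Psmg and a digit. The rule found 46 genes with 55 probes, of 16637 genes named by 21020 probes with a single symbol, and used no measured value. Transcripts were measured in hippocampus on 9 two-colour arrays, 3 for each of 3 comparisons, from 8 female mice, 2 in each of 4 groups. The first comparison set wild-type (WT) mice, of a strain given as 129SV with C57BL6, at 12 months over WT mice at 3 months, and so concerns ageing. The other two set 3xTG mice over WT mice at 3 and at 12 months, and so concern the genotype at each age. The strain label of the 3xTG mice includes APPSwe and tauP201L, which stand for transgenes of mutant human APP and tau. As background, these transgenes are driven by Thy1 regulatory sequence, which is active mainly in neurons. The labels mention no treatment and do not say whether the WT mice were littermates of the 3xTG mice.

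The proteasome consists of a barrel-shaped core particle and a regulatory particle that caps it. The core is built of rings of alpha subunits, which form the gate, and beta subunits, of which Psmb5, Psmb6 and Psmb7 carry the proteolytic sites. The regulatory particle contains a ring of ATPases, encoded by Psmc genes, that unfold substrates, and non-ATPase subunits, encoded by Psmd genes, that bind ubiquitin chains and remove them. Interferon induces Psmb8, Psmb9 and Psmb10, which replace the 3 catalytic subunits in the immunoproteasome and favour peptides for MHC class I. In neurons the proteasome takes part in synaptic remodelling and in the clearance of misfolded proteins such as tau.

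By these roles the 46 genes comprised 12 core subunits (6 alpha and 6 beta), 17 subunits of the regulatory particle (6 ATPases and 11 non-ATPases), 3 immunoproteasome subunits, 5 activators or inhibitors and 6 assembly chaperones. The other 3 were Psma8, the alpha subunit of testis, and 2 genes that match the rule by name only. These were Psmc3ip, a meiotic recombination factor, and Psme3ip1, a nuclear protein that binds Psme3.

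The transcription factor NFE2L1 raises proteasome subunit genes together when proteasome activity falls, and it acts through antioxidant response elements. The core of that element, TGACNNNGC, was searched on both strands of RefSeq promoter windows of assembly GRCm38.p6, from 250 bases before to 50 bases after the start site. It was present in 6 of the 38 proteasome genes with such a window (15.8%), in 2 of 9 core genes, and in 3781 of all 27025 genes with a window (14.0%). The 4 matches in core and regulatory genes are shown because these classes carry the results below. Capitals mark the motif, which lies on the opposite strand in Psmc6 and Psmd12. Psmb5 is at chr14:54618014-54618062 (minus strand), Psmb6 at chr11:70525328-70525356 (plus strand), Psmc6 at chr14:45329577-45329625 (plus strand) and Psmd12 at chr11:107479278-107479309 (plus strand), each read along the gene.
Psmb5: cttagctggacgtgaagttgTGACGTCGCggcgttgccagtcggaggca
Psmb6: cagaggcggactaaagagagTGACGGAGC
Psmc6: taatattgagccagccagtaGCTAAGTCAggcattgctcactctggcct
Psmd12: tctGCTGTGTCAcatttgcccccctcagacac
The core of the interferon-stimulated response element, 2 copies of GAAA with any 2 bases between them, was found in 0 of the 3 immunoproteasome genes, in 3 of the 38 (7.89%) and in 3.99% of all genes with a window. The 3 genes were Psmd4, Psmd9 and Psme1.

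Values below are deposited log2 ratios of test over reference after subtracting each array's median, averaged over the probes of a gene, so that 0 stands for the typical listed probe. The array medians taken away ran from -1.71 to 2.34. Each array listed between 13683 and 16191 of 29922 probes, and no listed ratio was within 0.501 of 0, so small ratios are missing. Proteasome genes were listed on 1 array (Psmd13) to 9 arrays (Psme3ip1), with a median of 5 arrays, the same as for all genes. Between 19 and 33 of the 46 were listed on an array, and 31 had a value in each comparison. Where several probes of a proteasome gene were listed on an array, they had opposite signs in 14 of 22 cases (63.6%), against 49.2% of 9298 cases over all genes. The ratios give no expression levels, so the tissue label could be set only against ratios of marker genes. Each group held 2 mice, arrays of a comparison shared mice, and an SD over 3 arrays is therefore partly technical. The test RNA was in Cy5 in experiment 1 of WT ageing and experiment 3 of each genotype comparison, and in Cy3 on the other 6 arrays. At 12 months experiment 3 was also the only array of its 3xTG mouse, so dye and mouse cannot be told apart there. The fitted ratios below include a dye term, but the array values and medians carry no dye correction.

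**Figure D1:**
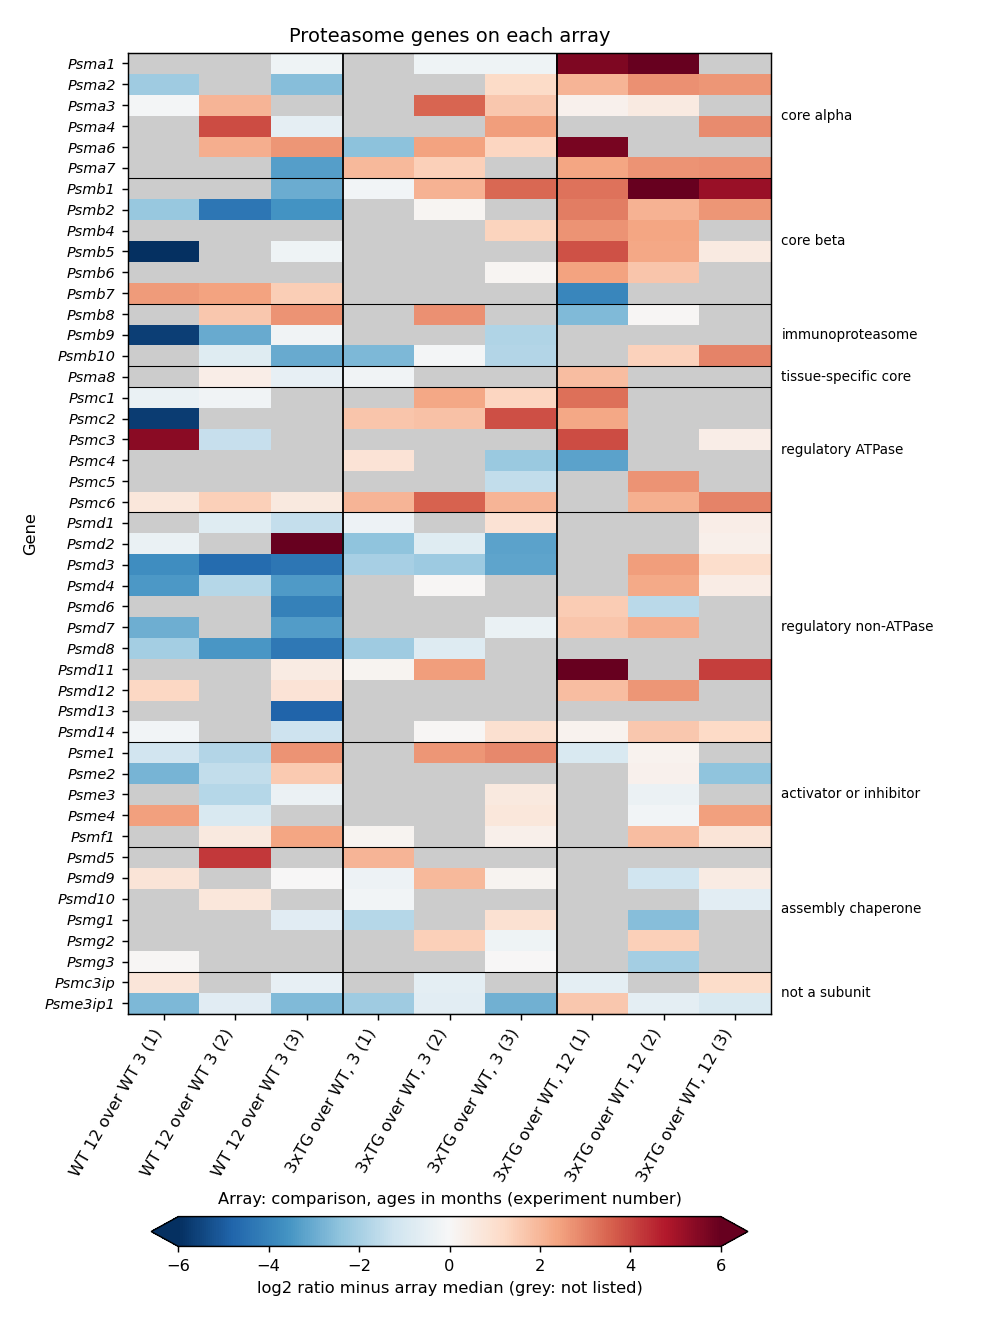
Log2 ratios of the 46 proteasome genes (rows, grouped by role) on the 9 arrays (columns, by comparison and experiment number), each minus its array's median; red is above and blue below the array median, the colour scale ends at -6 and 6, and grey marks values not listed. Core subunits are mostly red in the 3 right-hand columns (3xTG over WT at 12 months), and many Psmd genes are blue in the 3 left-hand columns (WT at 12 over 3 months).

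At 12 months, core subunits stood above the array median in 3xTG relative to WT on every array. The median over the listed core genes was 2.68, 2.36 and 2.71 on the 3 arrays, with 10 of 11, 9 of 9 and 6 of 6 genes above 0. Its mean was 2.58 ± 0.19 (SD, n = 3 arrays), or 2.41 ± 0.20 above the median of all genes. Alpha and beta subunits had nearly equal means of array medians, 2.62 ± 0.21 and 2.62 ± 0.27. Regulatory subunits had array medians of 1.85, 2.21 and 0.74, a mean of 1.60 ± 0.77. Averaged over the arrays that listed them, 11 of 12 core genes, 13 of 15 regulatory genes and 31 of 42 proteasome genes were above 0, against 55.3% of 14765 genes. The core exception was Psmb7, at -3.92 on the single array that listed it, and the regulatory ones were Psmc4 and Psmd6. The core gene Psma3 had a mean of 0.41 but a fitted ratio of -0.59 ± 1.12 (SE). Only experiments 1 and 2 listed it, both with the test RNA in Cy3 and from the same 3xTG mouse. The dye term of its fit therefore came from the other comparisons. Its probes also had opposite signs in both experiments, which affects the mean and the fitted ratio alike. In these bulk samples, fewer cells of a type and less RNA per cell cannot be told apart.

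No proteasome gene passed the test at 12 months. With limma and Benjamini-Hochberg adjustment over 7874 genes, 0 of the 23 proteasome genes that could be fitted were called, and 0% of all genes. At an unadjusted p under 0.05, 7 of the 23 were above 0, against 12.3% of all genes, and 0 of 23 were below 0, against 2.84%. The 7 were Psma1, Psma2, Psma7, Psmb1, Psmb2, Psmc6 and Psmd11. The fitted ratio was above 0 for 18 of 23, against 57.4% of all genes, and their median was 1.78, against 0.33 for all genes. After centring on abundant transcripts these medians were -0.36 and -1.80. Of the 7 proteasome genes listed on all 3 arrays, 6 were above 0 on each, against 30.4% of genes so listed, and 0 were below on each, against 16.3%. The 6 included all 5 core genes among the 7.

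Psmb1, a non-catalytic beta subunit, had the smallest p, with values of 3.27, 6.64 and 5.19. All 3 arrays were high, with the lowest in experiment 1, and the fitted log2 ratio was 5.31 ± 1.06 (SE, limma adjusted p = 0.25). Psmb2, also a non-catalytic beta subunit, had values of 3.07, 2.07 and 2.66 and a fitted ratio of 2.69 ± 0.81 (limma adjusted p = 0.25). Its 3 arrays lay within about 1 log2 unit of each other. The alpha subunit Psma7 had values of 2.37, 2.70 and 2.76 and a fitted ratio of 2.65 ± 0.83 (limma adjusted p = 0.25). The alpha subunit Psma2 had values of 2.05, 2.75 and 2.63 and a fitted ratio of 2.54 ± 0.82 (limma adjusted p = 0.25). These 3 genes had much alike and evenly spread ratios, while Psmb1 was higher and more variable. Without centring, the fitted ratios of Psmb2, Psma7 and Psma2 were 1.40, 1.37 and 1.27, and that of Psmb1 4.18. Centred on abundant transcripts, they were 0.54, 0.51 and 0.38 for Psmb2, Psma7 and Psma2, and 3.18 for Psmb1.

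The catalytic subunits did not share one value at 12 months. Psmb5, which carries the chymotrypsin-like site, had values of 3.83, 2.34 and 0.53, all above 0, and a fitted ratio of 1.52 ± 0.99 (limma adjusted p = 0.51). After centring on abundant transcripts that ratio was -0.63. Without experiment 3 it was -0.022, although the values left, 3.83 and 2.34, were both above 0. Both had the test RNA in Cy3, so the dye term then rested on the WT ageing values alone. Those were -6.49 in Cy5 and -0.27 in Cy3. Psmb6, which carries the caspase-like site, had values of 2.43 and 1.66, both from the same 3xTG mouse, and was not listed in experiment 3. Psmb7, which carries the trypsin-like site, was below 0 on its only listed array, as given above. Of the regulatory genes, Psmd14, the subunit that cuts ubiquitin chains from substrates, had values of 0.20, 1.62 and 1.21 (fitted 1.15 ± 0.79). Psma1, an alpha subunit, had values of 5.62 and 7.42, both from the same 3xTG mouse. Psmd11, a subunit of the lid of the regulatory particle, had values of 6.21 and 4.15, from different 3xTG mice. Each was listed on 2 arrays.

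The size of these ratios depended on what each array was centred on. Without centring the mean of array medians was 1.43 ± 0.41 for core and 0.45 ± 1.24 for regulatory genes, while all genes lay at -0.98 ± 0.51. Centred on 100 abundant genes (cytosolic ribosomal proteins, respiratory complexes and glycolysis), core genes lay at 0.48 ± 0.14 and regulatory genes at -0.50 ± 0.92, with all genes at -1.93 ± 0.17. Core subunits thus stood above 0 under each centring, whereas the direction of the regulatory subunits flipped, and the distance of both from all genes is the same under each. On these arrays the range of missing small ratios lay above 0 after centring, at 0.37 to 1.37 in experiments 1 and 2 and at 1.21 to 2.21 in experiment 3. The number at an unadjusted p under 0.05, 7, was 4, 3 and 3 without experiments 1, 2 and 3, each of which also left fewer genes tested, and 3 without centring.

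**Figure D2:**
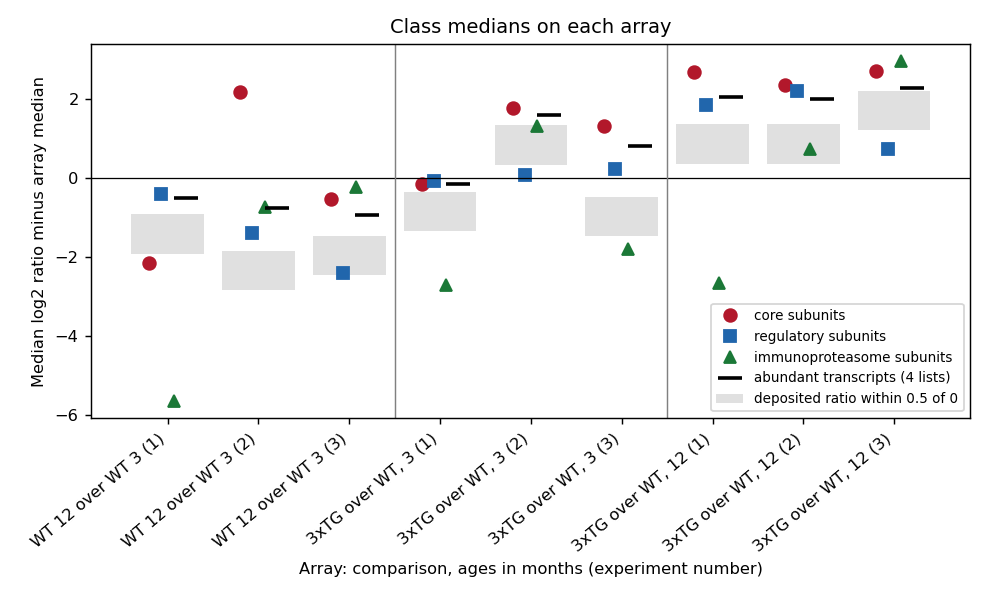
Median log2 ratio minus array median (vertical axis) of core (red circles), regulatory (blue squares) and immunoproteasome genes (green triangles) on each of the 9 arrays (horizontal axis); black bars are the median of the abundant transcripts and grey boxes span deposited ratios within 0.5 of 0, where no value is listed. The core medians at 12 months lie at 2.36 to 2.71, above the black bars, and the immunoproteasome medians, of 1 to 3 genes each, spread most.

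At 3 months, 3xTG and WT differed less evenly in these genes. Core genes had array medians of -0.16, 1.78 and 1.33 over 3, 6 and 8 listed genes, a mean of 0.98 ± 1.01. Regulatory genes lay close to all genes, at -0.06, 0.09 and 0.24, a mean of 0.09 ± 0.15. The ATPases had array medians of 1.67, 2.34 and 1.28 over 3, 3 and 5 genes, and the non-ATPases of -1.97, -0.33 and -0.40 over 5, 6 and 5 genes. Single genes of the 2 sets overlapped: in experiment 3 the ATPases Psmc4 and Psmc5 lay at -2.20 and -1.48, and in experiment 2 the non-ATPase Psmd11 lay at 2.49. The mean of the ATPase array medians, 1.77 ± 0.54, was 1.03 ± 1.23 with 1 probe per gene. Averaged over their listed arrays, 9 of 10 core genes, 7 of 13 regulatory genes and 25 of 39 proteasome genes were above 0, against 49.2% of all genes.

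None of the 19 proteasome genes tested at 3 months was called by limma after adjustment over 7670 genes, where 0% of all genes were. At an unadjusted p under 0.05, 3 were above 0 (Psma3, Psmc2 and Psmc6), against 7.93% of all genes, and 3 below (Psmd2, Psmd3 and Psme3ip1), against 5.57%. Of 9 proteasome genes listed on all 3 arrays, 2 were above 0 on each, against 28.4% of genes so listed, and 4 below on each, against 19.8%. The fitted ratio was above 0 for 13 of 19, against 50.1% of all genes. The total of 6 at the unadjusted threshold was 3, 3 and 2 without experiments 1, 2 and 3, and 2 with 1 probe per gene.

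The ATPase Psmc6 had values of 2.03, 3.56 and 2.02 and a fitted ratio of 2.47 ± 0.78 (limma adjusted p = 0.29). Its values are means of probes at 0.85 and 3.21 in experiment 1 and at 3.01 and 4.10 in experiment 2. Experiment 3 listed only the higher of these probes. The ATPase Psmc2 had values of 1.67, 1.74 and 3.88 and a fitted ratio of 2.79 ± 0.90 (limma adjusted p = 0.32). Both were above 0 on all arrays, with experiment 2 highest for Psmc6 and experiment 3 for Psmc2. The non-ATPase Psmd3, a lid subunit, had values of -1.97, -2.18 and -3.18 and a fitted ratio of -2.55 ± 0.76 (limma adjusted p = 0.28). Psmd2, the scaffold that receives ubiquitin shuttle proteins, had values of -2.41, -0.74 and -3.21 and a fitted ratio of -2.76 ± 1.11 (limma adjusted p = 0.36). Both lay below 0 on all arrays, and experiment 3 was lowest for both. Of the catalytic core genes, only Psmb6 was listed at 3 months, at 0.12 on 1 array.

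In WT mice, many non-ATPase subunits of the regulatory particle stood below the array median at 12 relative to 3 months. Their array medians were -2.03, -2.60 and -3.35 over 7, 4 and 11 listed genes, a mean of -2.66 ± 0.66, or -2.57 ± 0.64 from the median of all genes. Of the 8 that could be fitted, 2 had ratios above 0, Psmd2 at 3.07 ± 1.30 (values of -0.40 and 6.55 on 2 arrays, far apart) and Psmd12 at 1.06 ± 1.05. The ATPases had array medians of 0.15, -0.21 and 0.59 over 4, 3 and 1 genes, but single genes of both sets overlapped. In experiment 1 the ATPases ran from -5.69 (Psmc2) to 5.42 (Psmc3). Core genes had array medians of -2.15, 2.18 and -0.53, so the arrays of this comparison disagreed on their direction, with a mean of -0.17 ± 2.19. Beta subunits lay at -2.28, -0.97 and -1.64 and alpha subunits at -1.14, 2.18 and -0.53. Averaged over their listed arrays, 4 of 10 core genes, 5 of 15 regulatory genes and 17 of 41 proteasome genes were above 0, against 48.9% of all genes. Without centring, the non-ATPase mean was -0.75 ± 0.58 while all genes lay at 1.81 ± 0.44, and centred on abundant transcripts it was -1.92 ± 0.45. On these arrays the range of missing small ratios lay below 0 after centring. It ran from -1.915 to -0.915, from -2.835 to -1.835 and from -2.455 to -1.455 in experiments 1, 2 and 3. The non-ATPase median of -2.60 in experiment 2 lies within that range.

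None of the 26 proteasome genes tested in WT ageing was called by limma after adjustment over 8071 genes, where 0% of all genes were. At an unadjusted p under 0.05, 8 of the 26 were below 0, against 9.43% of all genes, and 0 above, against 2.45%. These were Psmb2, Psmb5, Psmb9, Psmd3, Psmd4, Psmd7, Psmd8 and Psme3ip1. The fitted ratio was above 0 for 11 of 26, against 46.9% of all genes. Of 10 listed on all 3 arrays, 6 were below 0 on each, against 23.3% of genes so listed, and 2 above on each (Psmb7 and Psmc6), against 15.6%. The 6 included Psme3ip1, which is not a subunit and had probes at -3.735 and 2.344 in experiment 2. Psmc6 had probes at -0.54 and 1.717 in experiment 3, so both signs rest on means of opposed probes. The count of 8 was 2 without experiment 1 and 3 without experiment 3.

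Psmd3 had the smallest p, with values of -3.71, -4.64 and -4.33 and a fitted ratio of -4.27 ± 0.76 (limma adjusted p = 0.23). All 3 arrays were low and close to each other. Psmd8, another lid subunit, had values of -2.03, -3.50 and -4.29 (fitted -2.94 ± 0.87, limma adjusted p = 0.28). Psmd4, a receptor for ubiquitin chains, had values of -3.43, -1.69 and -3.41 (fitted -2.99 ± 0.88, limma adjusted p = 0.28). Both were low on all arrays, with a wider spread than Psmd3. Among core genes Psmb2 was low on all 3 arrays, with values of -2.28, -4.34 and -3.57 (fitted -3.27 ± 0.81, limma adjusted p = 0.24).

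The catalytic subunits again differed from each other in WT ageing. Psmb5 had values of -6.49 and -0.27, which are far apart, and was not listed in experiment 2 (fitted -3.50 ± 1.16, limma adjusted p = 0.33). Psmb7 was above 0 on all 3 arrays, at 2.56, 2.40 and 1.49 (fitted 2.28 ± 0.92, limma adjusted p = 0.43). Psmb6 was not listed on any array of this comparison.

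**Figure D3:**
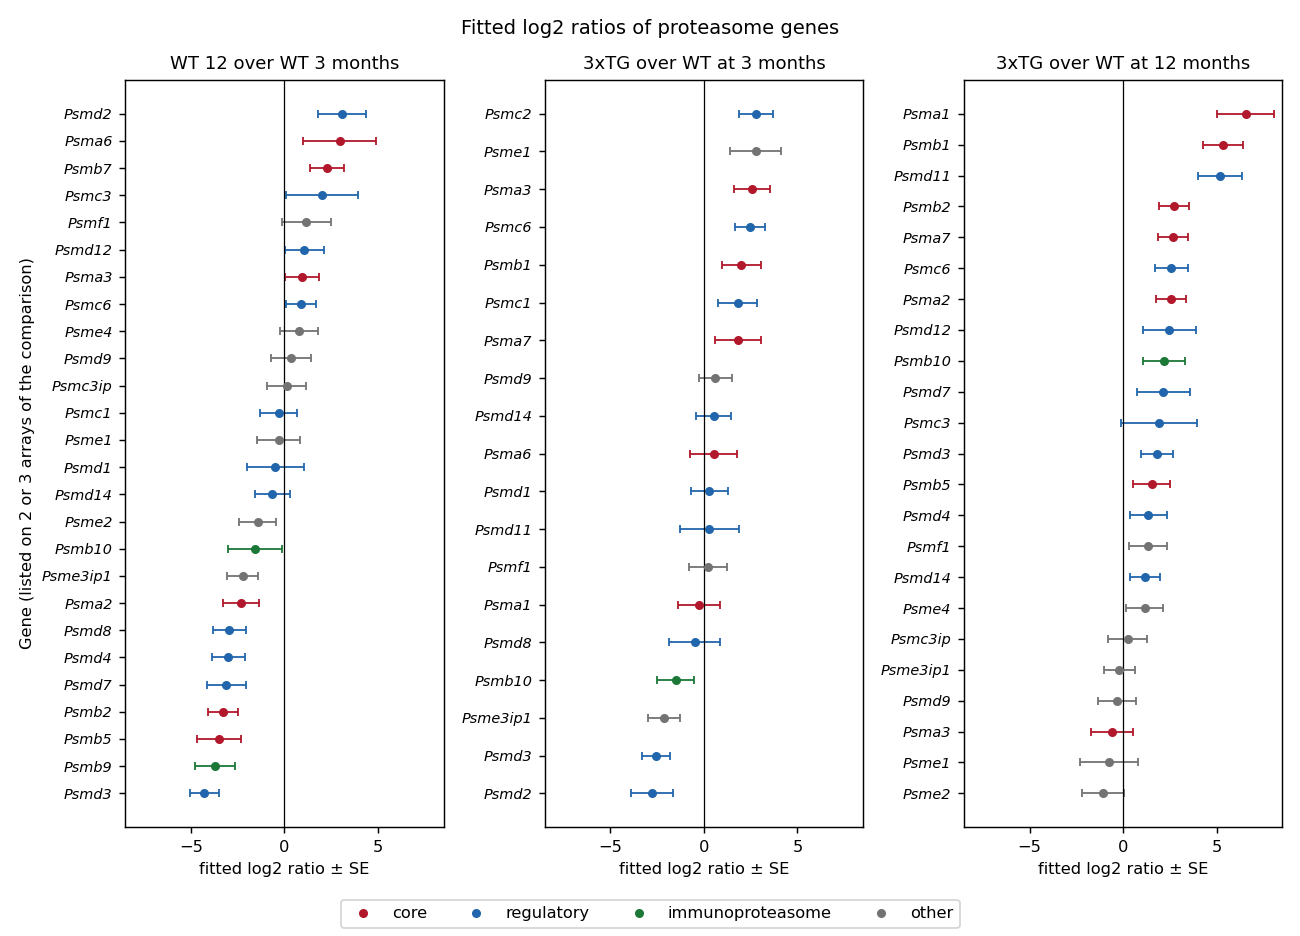
Fitted log2 ratios with their SE (horizontal axis) of the proteasome genes that could be fitted in a comparison (vertical axis, in order of the ratio), coloured by role, with 26, 19 and 23 genes in the 3 panels. The lowest ratios in WT ageing include 4 Psmd genes, headed by Psmd3 at -4.27, whereas core and regulatory genes fill the upper part of the panel for 3xTG over WT at 12 months; no gene passed the adjusted threshold.

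The immunoproteasome subunits did not follow one direction in any comparison. Their array medians averaged -2.20 ± 3.00 in WT ageing, -1.06 ± 2.11 in the genotype comparison at 3 months and 0.35 ± 2.83 in that at 12 months, on 1 to 3 genes per array. Psmb9 had values of -5.64, -3.03 and -0.21 in WT ageing, all below 0 but widely spread, with a fitted ratio of -3.70 ± 1.07 (limma adjusted p = 0.30), and -1.83 on 1 array at 3 months. Psmb10 had values of -0.73 and -3.01 in WT ageing (fitted -1.57 ± 1.44), and that direction turned without centring, at 0.67. At 3 months it had values of -2.71, -0.11 and -1.77, all below 0 (fitted -1.505 ± 1.00), and at 12 months of 1.40 and 2.97, both above (fitted 2.18 ± 1.13). The 2 ages rest on different probes of Psmb10. The values in experiments 1 and 3 at 3 months came from 1 probe, which was at -0.47 on its only listed array at 12 months, and the 12-month values above 0 came from the other probe, at 3.26 and 2.97. Psmb8 lay above 0 in WT ageing, at 1.64 and 2.69, and at 3 months, at 2.74 on 1 array. At 12 months it had values of -2.66 and 0.09, from different probes on the 2 arrays.

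Of 15 fixed genes of the interferon response and of MHC class I presentation, 12 were on the array, and B2m, the light chain of class I molecules, was above 0 in every comparison under each centring. Its fitted ratio was 2.13 in WT ageing, 4.77 in 3xTG mice aged 3 months (limma adjusted p = 0.20) and 2.84 in those aged 12 months. Irf1, an interferon-induced transcription factor, had fitted ratios of 0.83, 1.94 and 4.16. Other genes of the list lay below 0, with Tapbp at -1.05 and Erap1 at -0.18 at 3 months, and H2-D1 at -2.48 and Erap1 at -0.45 at 12 months. None of the 4, 5 and 6 genes of the list tested in the 3 comparisons was called, and their median fitted ratios were 0.65, 0.75 and 0.76, against -0.12, 0.01 and 0.33 for all genes. Over all listed genes of the list, the mean of array medians at 12 months was 0.16 ± 0.31, against 0.18 ± 0.03 for all genes. In WT ageing it was 0.89 ± 0.62, against -0.09 ± 0.02. At 3 months it was 1.84 ± 0.26, against 0.03 ± 0.04.

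The activators of the interferon-induced cap, Psme1 and Psme2, gave values that differed in sign between arrays. Psme1 had values of -1.16, -1.78 and 2.70 in WT ageing, 2.66 and 2.87 at 3 months and -0.90 and 0.21 at 12 months. Its 2 probes had opposite signs on each of the 3 arrays that listed both, up to 8.55 log2 units apart, so its mean joins opposed values. Its fitted ratio in WT ageing, -0.31 ± 1.14, turned to 0.56 without experiment 1 and 0.90 without experiment 2. Psme2 had values of -2.77, -1.47 and 1.58 in WT ageing and of 0.24 and -2.40 at 12 months. Experiment 3 thus stood above 0 and the other two below for both genes in WT ageing. Psmf1, a protein that binds and inhibits the core, was above 0 on each of the 6 arrays that listed it, at 0.14 to 2.39, although 1 of these was below 0 as deposited and 3 after centring on abundant transcripts.

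Assembly chaperones were thinly listed. At 12 months none of the 6 was listed in experiment 1, and 1 of the 5 with a value, Psmg2, had a mean above 0, unlike the core and regulatory genes. Their array medians averaged 0.87 ± 1.44 in WT ageing and 0.51 ± 1.02 for 3xTG over WT at 3 months. The only one tested in any comparison was Psmd9, a chaperone of the regulatory particle's base, with fitted ratios of 0.35, 0.61 and -0.36.

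Proteins that work with the proteasome were followed in a list of 29 genes, of which 21 were on the array. In WT ageing 12 were tested, with a median fitted ratio of -0.08, against -0.12 for all genes. At 3 months 10 were tested, with a median of 0.41, and at 12 months 9, with a median of 0.38, against 0.01 and 0.33. None was called by limma after adjustment. In WT ageing 3 of the 12 lay above 0 with an unadjusted p under 0.05 and 3 below, against 2.45% and 9.43% of all genes. In the 3-month genotype comparison 3 of the 10 lay above and 1 below, against 7.93% and 5.57%. In the 12-month one 3 of the 9 lay above and 0 below, against 12.3% and 2.84%.

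Usp14, a deubiquitinase that docks on the regulatory particle, had fitted ratios above 0 in all 3 comparisons, of 2.69, 4.63 and 2.69 (limma adjusted p = 0.35, 0.20 and 0.25). Uchl5, the other docking deubiquitinase, had ratios of 2.45 in WT ageing and 3.25 at 3 months. Nfe2l1, which encodes the factor named above, had ratios of -3.92, -2.42 and 2.41 (limma adjusted p = 0.28, 0.32 and 0.32). Sem1, a small subunit of the regulatory particle whose symbol is outside the rule, had ratios of -2.47, -1.08 and 2.49. Vcp, the ATPase that extracts ubiquitinated proteins for degradation, had ratios of -4.20, -1.95 and -0.09. Ngly1, which removes sugars from misfolded proteins and from NFE2L1, had a ratio of 3.89 at 3 months. Pomp, the maturation factor of the core, had ratios of 2.41 in WT ageing and 0.69 at 12 months.

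The difference between the genotype effects at 12 and at 3 months was tested in 13 proteasome genes, and 0 were called by limma after adjustment over 5653 genes, where 0% of all genes were. At an unadjusted p under 0.05, 3 were above 0 (Psma1, Psmb10 and Psmd3), against 5.09% of all genes, and 0 below, against 2.03%. The estimate was above 0 for 10 of 13, against 58.9% of all genes. For Psmd3, which had values of 2.51 and 1.04 at 12 months and lay below 0 on all 3 arrays at 3 months, it was 4.33 ± 1.14 (SE, limma adjusted p = 0.66). For Psma1, at -0.28 and -0.25 at 3 months, it was 6.80 ± 1.89, and for Psmb10, where the probes listed changed between ages, it was 3.69 ± 1.51 (limma adjusted p = 0.66 for both). Psmd11 had 4.88 ± 1.98. The lowest estimates were those of Psme1 (-3.55 ± 2.05), Psma3 (-3.14 ± 1.47) and Psmd9 (-0.96 ± 1.35). Psma1, Psma3 and Psme1 were listed only on arrays of a single 3xTG mouse at each age. Their estimates therefore do not cover the spread between 3xTG mice. The count of 3 was 0 without experiment 2 at 12 months, 1 without experiment 3 at 12 months and 1 without centring.

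WT ageing shares its 3-month WT mice with the genotype comparison at 3 months and its 12-month WT mice with that at 12 months, where they are the reference. Values across comparisons are therefore not independent and are given side by side only. Psmd3 had fitted ratios of -4.27 and -2.55 over the 3-month WT mice and 1.78 over the 12-month WT mice, the last of which turned to -0.36 after centring on abundant transcripts. Psmb2 had fitted ratios of -3.27 in WT ageing and 2.69 in 3xTG over WT at 12 months.

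Core and regulatory genes could be compared within each array, where centring cancels. The core median exceeded the regulatory median on 7 of 9 arrays and on all 3 at 12 months, by 0.83, 0.15 and 1.97. The mean difference was 0.98 ± 0.92 at 12 months, 0.90 ± 0.91 at 3 months and 1.22 ± 2.71 in WT ageing. An exact sign or permutation test over 3 arrays cannot reach the 0.05 threshold, and none was made.

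**Figure D4:**
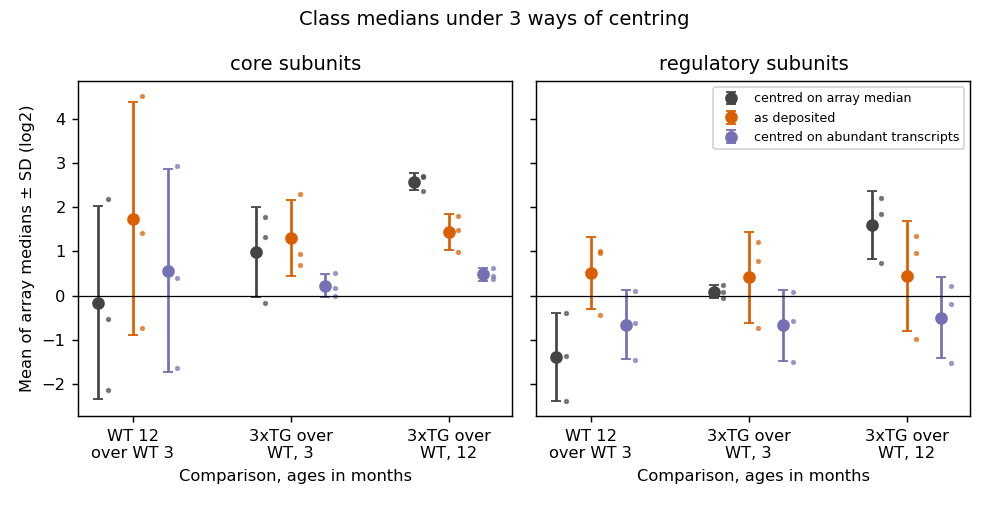
Mean of the 3 array medians with its SD (vertical axis, log2; small points are the arrays) for core genes (left) and regulatory genes (right) in the 3 comparisons, after centring on the array median (black), as deposited (orange) and after centring on abundant transcripts (purple). Core genes at 12 months lie at 2.58, 1.43 and 0.48 under these centrings, whereas regulatory genes lie at 1.60, 0.45 and -0.50.

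Markers of the cell types of hippocampus varied over the same arrays. Neuron markers, 7 of 8 on the array, had array medians of 0.67, -2.69 and 0.10 in WT ageing, 0.91, 2.13 and 3.25 in the genotype comparison at 3 months and 1.73, 2.03 and 0.03 in that at 12 months. All 5 neuron markers tested at 3 months had fitted ratios above 0, against 50.1% of all genes. The counts above 0 were 3 of 4 for astrocytes, 3 of 5 for microglia and 3 of 4 for oligodendrocytes. They were 3 of 3 for choroid plexus, 2 of 3 for T cells and blood and 0 of 2 for endothelium. Astrocyte markers, 8 of 8 on the array, lay at 2.47, 1.78 and -0.43 at 12 months, and microglial markers, 11 of 12, at -0.01, 1.501 and 0.95. Oligodendrocyte markers, 7 of 8, lay below 0 on all 3 arrays of WT ageing, at -0.85, -1.12 and -1.16. Their direction depended on the centring, with a mean of 0.86 ± 0.33 as deposited and -0.31 ± 0.07 centred on abundant transcripts. At 12 months they lay at 1.22, 0.28 and 0.885, with a mean of 0.80 ± 0.47, which was -0.35 ± 0.62 as deposited. The part of these shifts in the proteasome values was not tested.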

How the data were processed

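The deposited values are log2 ratios of test over reference RNA per probe, from linearly amplified RNA of single hippocampi carrying a Cy5 or Cy3 dye, per the labels' protocols. How they were scanned, filtered and normalized was not given in the sources used here. The direction was read from the titles, and arrays of 1 comparison with opposite dyes correlated at 0.197 to 0.308 over probes. Arrays of different comparisons with opposite dyes correlated at -0.133 to 0.215, so the ranges overlap. The extraction text names WT mice of both ages on every array, genotype arrays included, so groups were taken from titles. Symbols were updated through RefSeq (GRCm38.p6). Each array was centred on its median and probes were averaged per gene. Ratios were fitted with limma 3.58.1 in R 4.3.3 by generalised least squares, with 1 dye term and a covariance for shared mice (variance ratio 0.115, from 516 genes listed on all arrays), on genes with at least 2 of 3 arrays and residual degrees of freedom. Missing values were not imputed. P-values were adjusted by Benjamini-Hochberg over all genes tested, with a threshold of 0.05. The fit was run on simulated normal noise with its own variances and the observed listing pattern. Such data cannot test the effect of missing small ratios or of opposed probes. The members and gene lists were chosen with earlier results of these data known. Genes named were the catalytic, immunoproteasome and Psme1 and Psme2 subunits, then up to 4 of smallest p per direction and comparison among those of 1 sign on 3 arrays (for the difference between ages, with 2 arrays of each), and up to 4 of each comparison from the associated list; others were named after their values were seen. Alternatives covered centring, covariance, dye, block, slide run, probes, listing and single arrays. The number of arrays limits the precision, and p-values measure the spread between arrays of 2 mice a group. One element of the 3xTG strain name is not reported here.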

Additional observations from a re-analysis of the deposited data

How the results depend on the processing

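No gene passed the adjusted threshold in any of the 4 fits under any alternative. The number of proteasome genes at an unadjusted p under 0.05 varied. In WT ageing the 8 became 5 with a slide run term, 2 with 2 arrays of every comparison and 0 with values not listed set to 0, and 2 to 11 when each array was left out. For 3xTG over WT at 3 months the 6 became 3 with a slide run term, 2 with 1 probe per gene and 0 with values not listed set to 0, and 2 to 6 when each array was left out. At 12 months the 7 became 3 without centring, 3 with a slide run term, 1 with 2 arrays of every comparison, 4 with all 3 arrays of a comparison and 1 with values not listed set to 0, and 3 to 7 when each array was left out. For the difference between ages the 3 became 1 without centring, 5 with arrays taken as independent, 0 with all 3 arrays of a comparison, 0 with values not listed set to 0, and 0 to 3 when each array was left out.

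Deviations from the comparison means correlated at -0.08 to 0.06 between arrays of the same experiment number and at -0.08 to 0.12 between different numbers. Arrays also share mice across numbers, so these values cannot decide whether the numbers paired the arrays. With the replicate block, 3, 2 and 1 proteasome genes had an unadjusted p under 0.05 in the 3 comparisons, Psme1 at 12 months turned to 0.0075, and no gene was called.

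Without centring, the mean of array medians of regulatory genes was 0.51 in WT ageing, 0.41 at 3 months and 0.45 at 12 months, and that of core genes at 12 months was 1.43. Centred on abundant transcripts, regulatory genes lay at -0.67 at 3 months and -0.50 at 12 months, and core genes at 12 months at 0.48. With 1 probe per gene, regulatory genes at 3 months lay at -0.13. With values not listed set to 0, regulatory genes lay at 0 in WT ageing and at 12 months, core genes at 12 months at 1.01 and immunoproteasome genes in WT ageing at 1.115. Single genes turned sign. In WT ageing, Psmb10 was 0.67 without centring and 0.52 with values not listed set to 0, and Psme2 0.33 and 0.0399. Psme1 was 1.62 without centring, 0.45 centred on abundant transcripts, 0.44 with a slide run term, 0.68 with values not listed set to 0, 0.56 without experiment 1 and 0.90 without experiment 2 (range without single arrays -1.47 to 0.90). At 12 months Psmb5 was -0.63 centred on abundant transcripts and, without single arrays, -0.022 (experiment 3) to 2.18. The -0.022 followed from the dye term, which without experiment 3 rested on the WT ageing values of Psmb5 alone. The cause of the other changes was not tested.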
